A study of Bos taurus with 6 samples.

Results

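Extracellular proteases and their inhibitors were compared between bovine blastocysts and granulosa cells. The members were the probes whose gene symbol on the platform begins with ADAM, MMP, TIMP, SERPIN, PLAU or PLAT, or is CTS followed by a single letter. They numbered 120 of 43794 probes and stood for 105 genes. The 18 probes of TIMM genes, which encode mitochondrial import proteins, were left out. Of the 105 genes, 62 encode enzymes, 26 encode inhibitors, and 17 encode relatives of either that neither cut nor inhibit, or the urokinase receptor.

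Proteases outside the cell cut matrix proteins, growth factors and one another. Matrix metalloproteinases (MMPs), ADAMs and ADAMTSs are zinc enzymes restrained by the tissue inhibitors of metalloproteinases (TIMPs). The plasminogen activators PLAT and PLAU turn plasminogen into plasmin and are restrained by serpins, which trap a serine protease in a covalent complex. Cathepsins are mostly lysosomal and are also secreted. In the ovary, plasmin and metalloproteinases take part in remodelling of the follicle wall at ovulation. In the embryo, proteases take part in hatching and in the contact of trophoblast with the uterus.

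Each of the 6 arrays carried RNA of both cell types in 2 colours. The blastocysts came from in-vitro culture of Holstein embryos at day 7 after fertilisation with mixed semen of 3 bulls, and are whole embryos holding trophectoderm and inner cell mass. Their oocytes were from abattoir ovaries, from follicles of 3 to 6 mm. The granulosa cells came from lactating Holstein cows at day 8 to 11 after oestrus. Follicles over 5 mm were aspirated, 6 injections of 40 mg follicle-stimulating hormone (FSH) began 36 h later, and cells were taken 44 h after the last injection and selected under a microscope. No untreated cow, other embryo stage or other cell type was on the arrays, and RNA was amplified before labelling. Blastocyst RNA was in Cy3 on 3 arrays and in Cy5 on 3, numbered 1 to 3 each way, and same-numbered arrays were averaged to give 3 replicates. All ratios below are log2 of blastocyst over granulosa, so a negative value is a higher signal in granulosa cells.

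Raw median intensity was 189 to 386 in the Cy3 channel and 177 to 210 in the Cy5 channel. Probes above background made up 65.6% to 76.7% in the blastocyst channel and 57.0% to 78.4% in the granulosa channel. Of 8 blastocyst markers, 7 were higher in blastocysts, and 3 of 7 tested granulosa markers were higher in granulosa cells. The granulosa pools differed from one another in markers of other cells. Summed intensity of 7 leukocyte markers was 41643, 2938 and 1820 in granulosa pools 1, 2 and 3, against 987 to 1289 in blastocysts. LYZ, near the scanner limit in pool 1, made up most of this, and without it the sums were 5516, 2298 and 1082. CD68 was brightest in pool 2. The summed intensity of 7 theca and stroma markers was 51212, 65581 and 2806, against 3575 to 3909 in blastocysts. It came mainly from the stroma genes COL3A1, COL1A2 and DCN. Without these 3 the sums were 665, 723 and 619. LHCGR, which was listed for theca, went the other way, with dim log2 intensities of 6.88, 7.16 and 7.36. It exceeded background on 4 of 6 granulosa arrays. Summed intensity of 5 endothelial markers was 5968, 5284 and 733, against 756 to 781 in blastocysts, and without KDR it was 1385, 1592 and 619. In granulosa cells NANOG, POU5F1, DPPA3 and IFNT exceeded background on 0 arrays, as did AMH in blastocysts. In blastocysts LHCGR, the luteinising hormone receptor gene listed for theca, exceeded background on 0 arrays.

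A gene passed the test at an adjusted p under 0.05 (limma, Benjamini-Hochberg over all tested probes) with a log2 ratio of at least 1 in size. Of the 105 genes, 87 had a probe above background often enough to be tested, and 10 were above background on no array. Among the 87, 9 genes passed, or 10.3%, beside 13.3% of all 13229 genes tested. Of these, 2 were higher in blastocysts (2.3%, beside 5.68% of all genes) and 7 were higher in granulosa cells (8.05%, beside 7.65%). Without replicate 1 the 9 became 5, and the count over all genes also fell from 1764, as given in the last section. Without replicate 2, which leaves 2 replicates, 0 members and 0 of all genes passed by limma. Then 14 members had an unadjusted p under 0.05 (16.1%, beside 29.4% of all genes). With the replicate number as a block on 6 arrays, 20 passed (23%, beside 19.1% of all genes), or 17 with a dye term (19.5%, beside 18.6%). The block fit without a dye term estimated a correlation of -0.0028, and so counted the 6 dye-swapped arrays as independent samples, although same-numbered arrays came from the same numbered pair. Calls gained under a block rest on arrays and not on further pools. The median ratio of the 87 was -0.07 and that of all genes was -0.02. Most members had a ratio near 0, with 58 of 87 (66.7%) within 0.5 of 0, beside 62.8% of all genes. Several of these were dim in both cell types, such as ADAMTS12, with mean log2 intensities of 7.08 in blastocysts and 6.98 in granulosa cells. For a dim probe a ratio near 0 does not show equal expression. In bulk RNA, fewer cells of a type and less RNA per cell cannot be told apart.

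**Figure D1:**
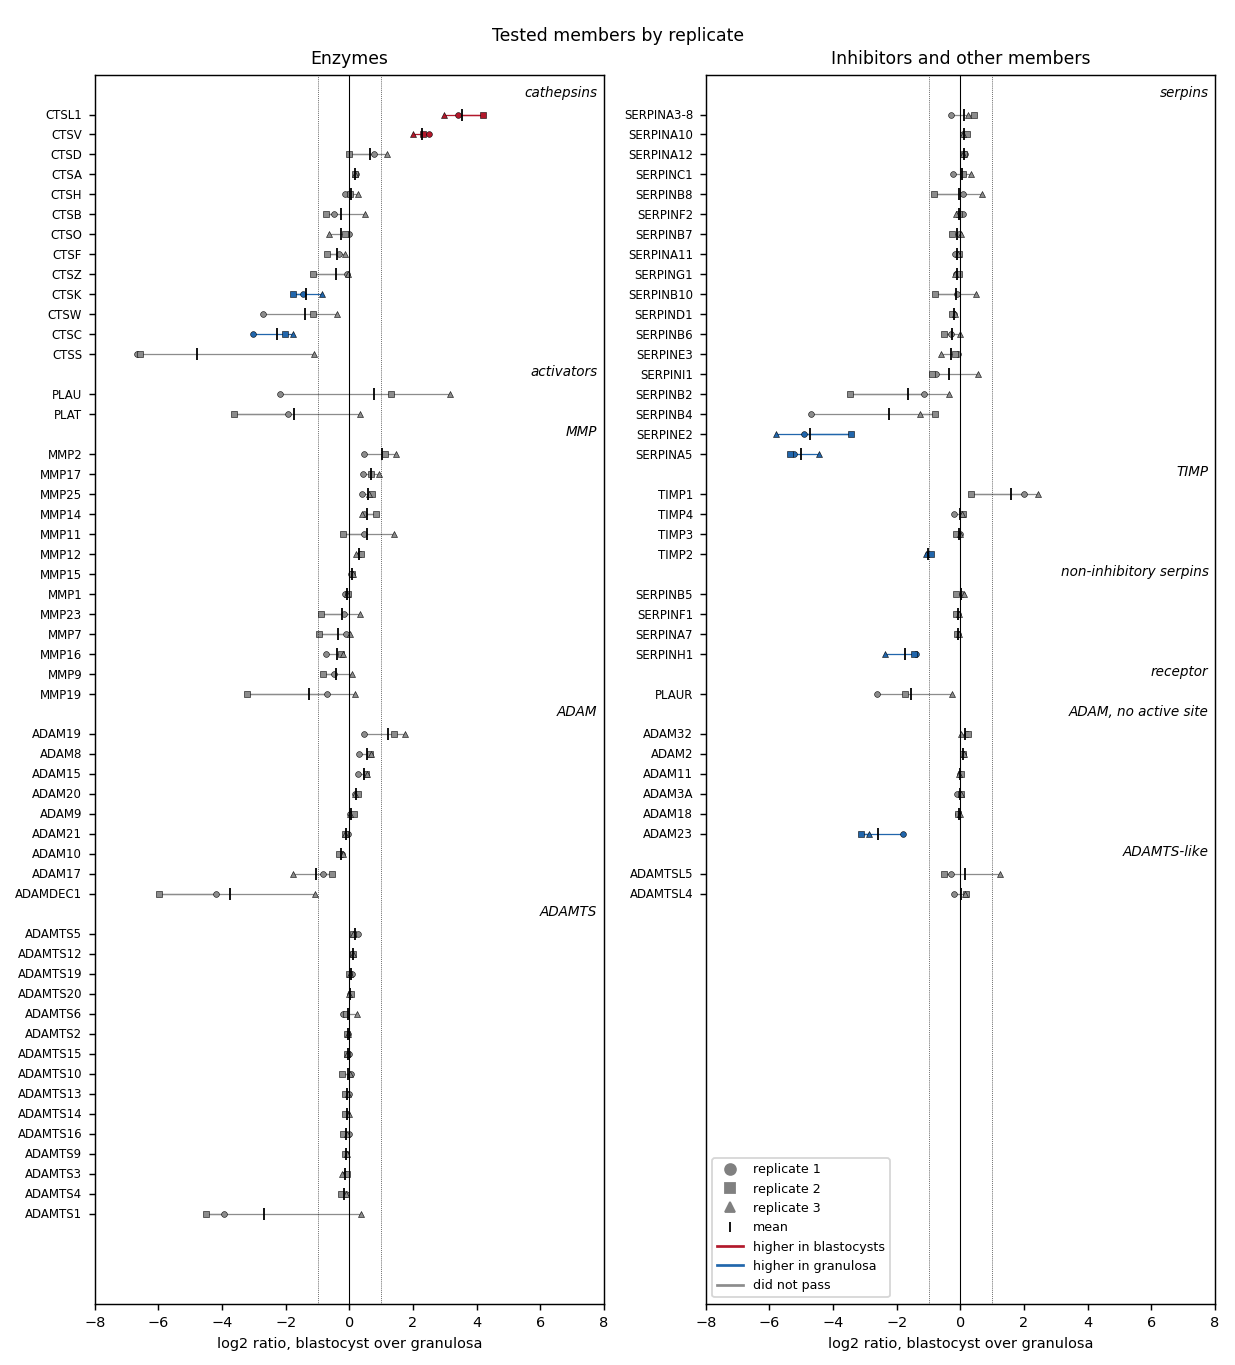
Log2 ratio of blastocyst over granulosa signal for members in each of 3 replicates, grouped by role. SERPINA5 and SERPINE2 lay furthest toward granulosa cells among the genes that passed and CTSL1 furthest toward blastocysts, while CTSS and PLAU spread widely between replicates.

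Of 52 tested enzymes, 2 passed toward blastocysts and 2 toward granulosa cells (7.69% in all, beside 13.3% of all genes), and the median ratio was -0.06. Of 22 tested inhibitors, 0 passed toward blastocysts and 3 toward granulosa cells (13.6%, close to the 13.3% of all genes), and the median ratio was -0.11. The 3 became 1 without replicate 1, 0 without replicate 2 and 1 without replicate 3. The count over all genes also fell in each case, to 0 without replicate 2. Under the block 1 inhibitor, TIMP1, was also higher in blastocysts. The difference between enzymes and inhibitors as groups was not tested.

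SERPINE2, or protease nexin-1, is a secreted serpin that blocks thrombin and both plasminogen activators. Its ratio was -4.90, -3.44 and -5.79 in replicates 1, 2 and 3, a mean of -4.71 ± 1.18 (SD, n = 3), or 26.2-fold higher in granulosa cells (adjusted p = 0.0224). Its log2 intensity was 15.36, 15.37 and 15.27 in granulosa cells and 10.45, 11.93 and 9.49 in blastocysts. The granulosa values were nearly level while the blastocyst values ranged widely, and the groups did not overlap. On every array the granulosa signal approached the upper limit of the scanner. The size of its ratio moved with the dye: it was -6.92, -4.88 and -8.49 with blastocyst RNA in Cy3, and -2.89, -2.01 and -3.09 with it in Cy5. The sign was the same on all 6 arrays. The gene no longer passed when any 1 of the 3 replicates was left out, and without replicate 2 no gene of the whole series did.

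SERPINA5, the protein C inhibitor, acts on activated protein C and urokinase and is helped by heparin. Its log2 intensity was 13.996, 13.851 and 13.992 in granulosa cells and 8.77, 8.49 and 9.55 in blastocysts. Its ratio was -5.22, -5.36 and -4.44, a mean of -5.01 ± 0.50 (SD, n = 3), or 32.2-fold higher in granulosa cells (adjusted p = 0.00698). The granulosa pools were almost equal, and the groups lay far apart. Without replicate 2 the adjusted p was 0.058, in a fit where no gene of the whole series passed.

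The TIMPs went different ways. TIMP2, which blocks MMPs and also helps MMP14 activate pro-MMP2, gave 12.10, 12.06 and 12.36 in granulosa cells and 11.08, 11.15 and 11.27 in blastocysts. Its ratio of -1.01 ± 0.09 (SD, n = 3) was 2.01-fold higher in granulosa cells (adjusted p = 0.00907), with little spread. It lay just past the limit of 1 and fell short under median centring (-0.83), without background correction (-0.97) and in the deposited net intensities (-0.94). It also no longer passed when any 1 replicate was left out, and without replicate 2 no gene of the whole series did. TIMP1, a secreted inhibitor of most MMPs, had ratios of 1.99, 0.35 and 2.46, a mean of 1.60 ± 1.11 (SD, n = 3; adjusted p = 0.126). Its granulosa log2 intensities were 7.86, 8.98 and 6.93 and its blastocyst ones 9.85, 9.33 and 9.39, which did not overlap. With the replicate block, which rests on arrays and not on further pools, it passed (adjusted p = 0.00988, or 0.0208 with a dye term). TIMP3, the matrix-bound member that also blocks ADAM17, had a ratio of -0.05 ± 0.07 (SD, n = 3; adjusted p = 0.55). Its probe was dim, with mean log2 intensities of 7.14 in blastocysts and 7.19 in granulosa cells, so this ratio does not show equal expression.

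Of 18 tested inhibitory serpins, SERPINE2 and SERPINA5 passed and 14 lay within 0.5 of 0, beside 62.8% of all genes. The other two were SERPINB2 and SERPINB4, named after their values were seen. SERPINB2, or plasminogen activator inhibitor 2, had granulosa log2 intensities of 11.83, 14.33 and 11.12, against 10.68 to 10.87 in blastocysts. SERPINB4 had 12.27, 7.76 and 8.82 in granulosa cells. Each was high in a single granulosa pool, pool 2 for the former and pool 1 for the latter.

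**Figure D2:**
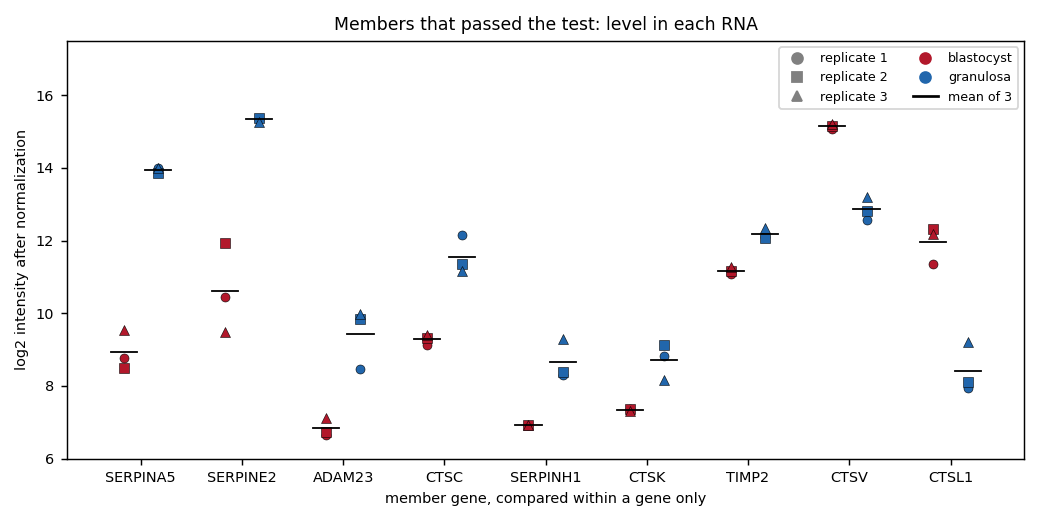
Log2 intensity of the 9 genes that passed, in blastocysts and in granulosa cells, with a point for each replicate. CTSV and CTSL1 were brighter in every blastocyst replicate, and the other 7 in every granulosa replicate.

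Cathepsins held all 4 of the enzymes that passed, out of 13 tested, with 2 in each direction (30.8%, beside 13.3% of all genes). None of the 4 passed without replicate 2, where no gene of the whole series did. CTSL1 is the array's older symbol, which the RefSeq table lists under both CTSL and CTSV, and it is kept here. Cathepsin L is a lysosomal cysteine protease that can also act outside the cell. CTSL1 had log2 intensities of 11.36, 12.31 and 12.18 in blastocysts and 7.93, 8.12 and 9.20 in granulosa cells. Its ratio was 3.43, 4.19 and 2.98, a mean of 3.53 ± 0.61 (SD, n = 3), or 11.6-fold higher in blastocysts (adjusted p = 0.0125). The groups lay well apart. CTSV, a close relative of cathepsin L, gave 15.07, 15.15 and 15.21 in blastocysts and 12.57, 12.83 and 13.20 in granulosa cells. Its ratio was 2.28 ± 0.25 (SD, n = 3), or 4.84-fold higher in blastocysts (adjusted p = 0.00774). On every array its blastocyst signal approached that limit. The other two CTSV probes gave mean ratios of 2.08, which passed, and 0.15, which did not, so the probes disagreed. Whether probes of these close relatives share signal was not tested.

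Cathepsins C and K were higher in granulosa cells. CTSC, a dipeptidyl peptidase that activates granule proteases of leukocytes, had ratios of -3.02, -2.04 and -1.76, a mean of -2.27 ± 0.66 (SD, n = 3), or 4.83-fold (adjusted p = 0.0291). Its granulosa log2 intensities were 12.16, 11.36 and 11.15, with pool 1 highest, as for the leukocyte markers above. Blastocysts gave 9.14 to 9.40. The part of leukocyte RNA in this difference was not tested. CTSK, a collagen-cutting cathepsin of osteoclasts, had ratios of -1.46, -1.77 and -0.87, a mean of -1.36 ± 0.46 (SD, n = 3), or 2.58-fold (adjusted p = 0.0377). Its granulosa values of 8.81, 9.12 and 8.17 all exceeded the 7.30 to 7.35 of blastocysts. Without background correction its adjusted p was 0.0537.

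CTSS, a cathepsin of antigen-presenting cells, had the widest split between pools. Its granulosa log2 intensity was 14.50 and 14.13 in pools 1 and 2 but 8.98 in pool 3, while blastocysts gave 7.84, 7.56 and 7.88. Its ratios were -6.67, -6.57 and -1.11, a mean of -4.78 ± 3.18 (SD, n = 3; adjusted p = 0.117). With the replicate block it passed (adjusted p = 0.00777, or 0.0157 with a dye term). That call rests on arrays and not on further pools, and the ratio differed between replicates (limma F test, adjusted p = 1.92e-08). A dimmer CTSS probe gave -0.29. CTSD and CTSB, abundant lysosomal cathepsins, had ratios of 0.65 ± 0.62 (adjusted p = 0.204) and -0.25 ± 0.65 (adjusted p = 0.573; SD, n = 3 each).

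The plasminogen activators did not pass, and their replicates disagreed in sign. PLAU, or urokinase, had ratios of -2.18, 1.32 and 3.17, a mean of 0.77 ± 2.71 (SD, n = 3; adjusted p = 0.675), which turned to -0.43 without replicate 3. Its granulosa log2 intensity was 13.51, 11.10 and 9.60, and its blastocyst intensity was 11.34, 12.42 and 12.77. Blastocysts were dimmer in replicate 1 and brighter in replicates 2 and 3. PLAT, the tissue-type activator, had ratios of -1.93, -3.61 and 0.34, a mean of -1.74 ± 1.98 (SD, n = 3; adjusted p = 0.259). Its granulosa values were 9.10, 10.76 and 8.83 and its blastocyst values 7.17, 7.14 and 9.17, which overlapped. PLAUR, the urokinase receptor, had ratios of -2.61, -1.73 and -0.28, a mean of -1.54 ± 1.18 (SD, n = 3; adjusted p = 0.148). All 3 were below 0, and it passed with the replicate block (adjusted p = 0.016, or 0.0291 with a dye term). That call rests on arrays and not on further pools.

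No MMP passed among 13 tested of 18, beside 13.3% of all genes. Of the 13, 8 differed between replicates, beside 48.5% of all genes. The gelatinase MMP2 had a ratio above 0 in every replicate, at 0.48, 1.14 and 1.47, a mean of 1.03 ± 0.51 (SD, n = 3; adjusted p = 0.073). It passed with the replicate block, which rests on arrays and not on further pools (adjusted p = 0.0114, or 0.00599 with a dye term). Its blastocyst log2 intensities were 8.49, 9.95 and 10.46, and those of granulosa cells 8.02, 8.82 and 8.99, which overlapped. MMP14, the membrane enzyme that activates MMP2, had a ratio of 0.57 ± 0.24 (adjusted p = 0.0642), and MMP9, the other gelatinase, -0.41 ± 0.46 (adjusted p = 0.263; SD, n = 3 each). MMP19, an MMP of the ovulating follicle in mice, had -0.72, -3.23 and 0.18, with granulosa pool 2 brightest at 10.84 beside 8.66 and 7.67. MMP25, a membrane-anchored MMP, had an adjusted p of 0.0333 but a ratio of 0.57, below the limit of 1, and is named after its values were seen.

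No ADAM or ADAMTS enzyme passed, among 9 and 15 tested, beside the same 13.3%. ADAM17, which sheds tumour necrosis factor and growth factor ligands, had ratios of -0.82, -0.55 and -1.78, a mean of -1.05 ± 0.64 (SD, n = 3; adjusted p = 0.104). It passed with the replicate block, which rests on arrays and not on further pools (adjusted p = 0.0106, or 0.0143 with a dye term). A second ADAM17 probe had the opposite sign at 0.43 (adjusted p = 0.022), so no direction is given for the gene. ADAM10, the related sheddase, had a ratio of -0.25 ± 0.06 (SD, n = 3; adjusted p = 0.0642).

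ADAMDEC1, an ADAM of macrophages and dendritic cells, and ADAMTS1, a versican-cutting enzyme induced at ovulation in mice, were far brighter in granulosa pools 1 and 2 than in pool 3. ADAMDEC1 gave 11.41, 12.76 and 7.94 in the pools and 6.77 to 7.23 in blastocysts, for ratios of -4.18, -5.99 and -1.07 (adjusted p = 0.116). It passed with the replicate block, which rests on arrays and not on further pools (adjusted p = 0.00786, or 0.0164 with a dye term). ADAMTS1 gave 12.74, 13.20 and 8.61 in the pools and 8.69 to 8.98 in blastocysts. Its mean ratio was -2.69 ± 2.67 (SD, n = 3; adjusted p = 0.214), with 0.0401 under the block without a dye term. Of the 15 ADAMTS enzymes, the 14 besides ADAMTS1 lay within 0.5 of 0, beside 62.8% of all genes. Among them was ADAMTS5, the neighbour of ADAMTS1 in the RefSeq table. ADAMTS5 was dim, above background on 3 of 6 arrays in each cell type. Its mean ratio was -0.42 with blastocyst RNA in Cy3 and 0.78 with it in Cy5, so its mean shows no direction.

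Among relatives that neither cut nor inhibit, ADAM23 and SERPINH1 were higher in granulosa cells. SERPINH1, or HSP47, is a collagen chaperone of the endoplasmic reticulum. It gave 8.31, 8.39 and 9.29 in granulosa cells and 6.93 in each blastocyst replicate, where it exceeded background on 1 of 6 arrays. Its ratio was -1.73 ± 0.54 (SD, n = 3; adjusted p = 0.0334). ADAM23, a cell-adhesion protein without a protease site, gave 8.47, 9.85 and 9.98 in granulosa cells and 6.65, 6.74 and 7.11 in blastocysts, above background on 2 of 6 blastocyst arrays. Its ratio was -2.60 ± 0.69 (SD, n = 3; adjusted p = 0.0247). For both genes the blastocyst signal was mostly not above background, so no fold is given. Where both cell types had to exceed background on all arrays, neither probe was tested, and 7 of 53 members passed (13.2%, beside 19.6% of all genes). Its other two probes gave -0.23 and -0.70 and did not pass.

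Known enzyme and inhibitor pairs were compared by the difference of their ratios within each replicate, which is above 0 where the enzyme leaned further toward blastocysts than its inhibitor. For 14 pairs with n = 3, an exact two-sided sign-flip test cannot give a p below 0.25, so none could pass. The difference was above 0 in all 3 replicates for 6 pairs and below 0 in all 3 for 4 pairs. MMP14 minus TIMP2 was 1.47, 1.76 and 1.49, a mean of 1.57 ± 0.16 (SD). MMP2 minus TIMP2 was 1.49, 2.05 and 2.56, a mean of 2.03 ± 0.53 (SD). In both pairs all 3 replicates had the same sign, as also in PLAU minus SERPINE2 (5.48 ± 3.17) and PLAU minus SERPINA5 (5.78 ± 2.41), where the spread was far wider. The granulosa signal of SERPINE2 approached the scanner limit and its ratio moved with the dye, so differences against it have no firm size. CTSL1 minus the cystatin CST3, at 4.66, 6.68 and 3.91, and CTSV minus CST3, at 3.73, 4.81 and 2.94, were also above 0 throughout. The blastocyst signal of CTSV approached the scanner limit. How often unrelated genes give the same sign in all 3 replicates was not tested. PLAT minus SERPINE2 was 2.97, -0.17 and 6.13, which changed sign. The 4 pairs below 0 were MMP9 minus TIMP1, at -2.46, -1.18 and -2.37, ADAM17 minus TIMP3, at -0.80, -0.42 and -1.78, CTSS minus the cystatin CST3 (mean -3.23) and CTSB minus the cystatin CSTB (mean -2.38). The ADAM17 value rests on a probe that another probe of the gene opposes, and TIMP3 was dim in both cell types. Pairs that share a gene are not independent.

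**Figure D3:**
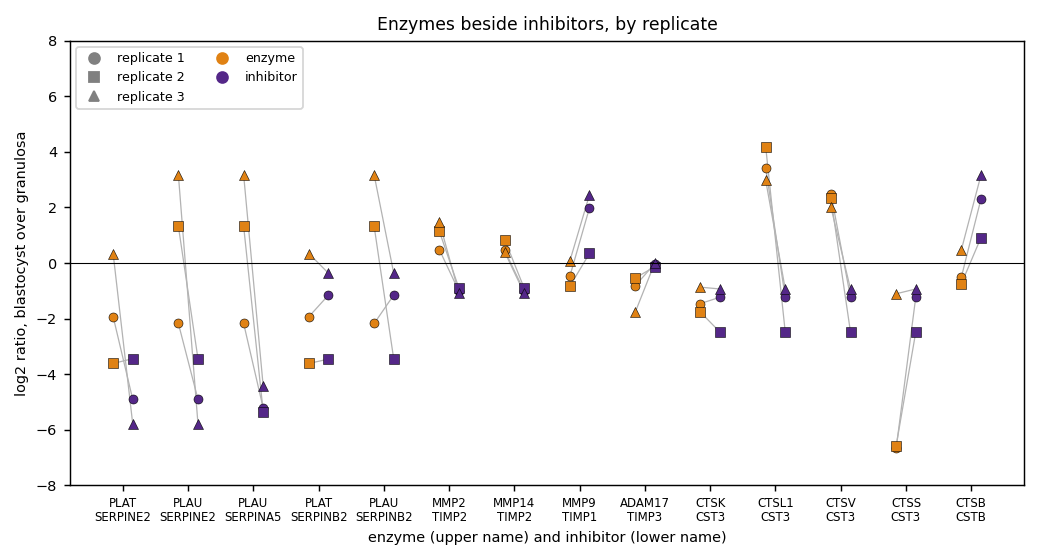
Log2 ratio of blastocyst over granulosa signal for the enzyme and the inhibitor of 14 pairs. Each replicate has a point per gene, and a line joins enzyme and inhibitor within a replicate. The difference of enzyme minus inhibitor varied least for MMP14 and TIMP2, and for PLAT and SERPINE2 it changed sign between replicates.

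The replicates differed for 43 of 87 members (limma F test on 6 arrays, adjusted p under 0.05), or 49.4%, beside 48.5% of all genes. The count was 26 without replicate 3, with no count over all genes beside it, so this fall is not read as particular to members. Of the 87, 22 had a mean ratio of at least 1 in size (25.3%, beside 20.1% of all genes). Of these 22, 9 passed and 13 did not. Over all genes, 2659 had a ratio of this size and 1764 of those passed. In 23 members that differed, granulosa intensity also ranged by at least 1 over the pools, or 26.4%, beside 14.2% of all genes. Pool 3 was dimmest for 17 of the 23 (73.9%, beside 59.2% for all such genes). The stroma gene COL3A1 had ratios of -7.71, -8.24 and -2.93, and the endothelial gene KDR -4.87, -5.06 and 0.24. In replicate 3 the granulosa level of COL3A1 was thus closest to that of blastocysts, and that of KDR was just below it. The granulosa level of CTSS and ADAMDEC1 was likewise closest to that of blastocysts in replicate 3, and that of ADAMTS1 was just below it. The granulosa gene CYP19A1, for aromatase, went the other way, with -2.82, -1.13 and -5.73. Granulosa markers did not all do so. Of 7 tested, 5 differed between replicates and 1, NR5A2, was dimmest in pool 3, with ratios of 0.33, 1.38 and 1.75. INHA and INHBA did not differ between replicates (limma F test, adjusted p = 0.859 and 0.333). Their granulosa signal approached the scanner limit, on 4 of 6 arrays for INHA and 6 of 6 for INHBA. A difference between pools could therefore be missed in these genes. The part of other cell types in the members' differences was not tested.

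**Figure D4:**
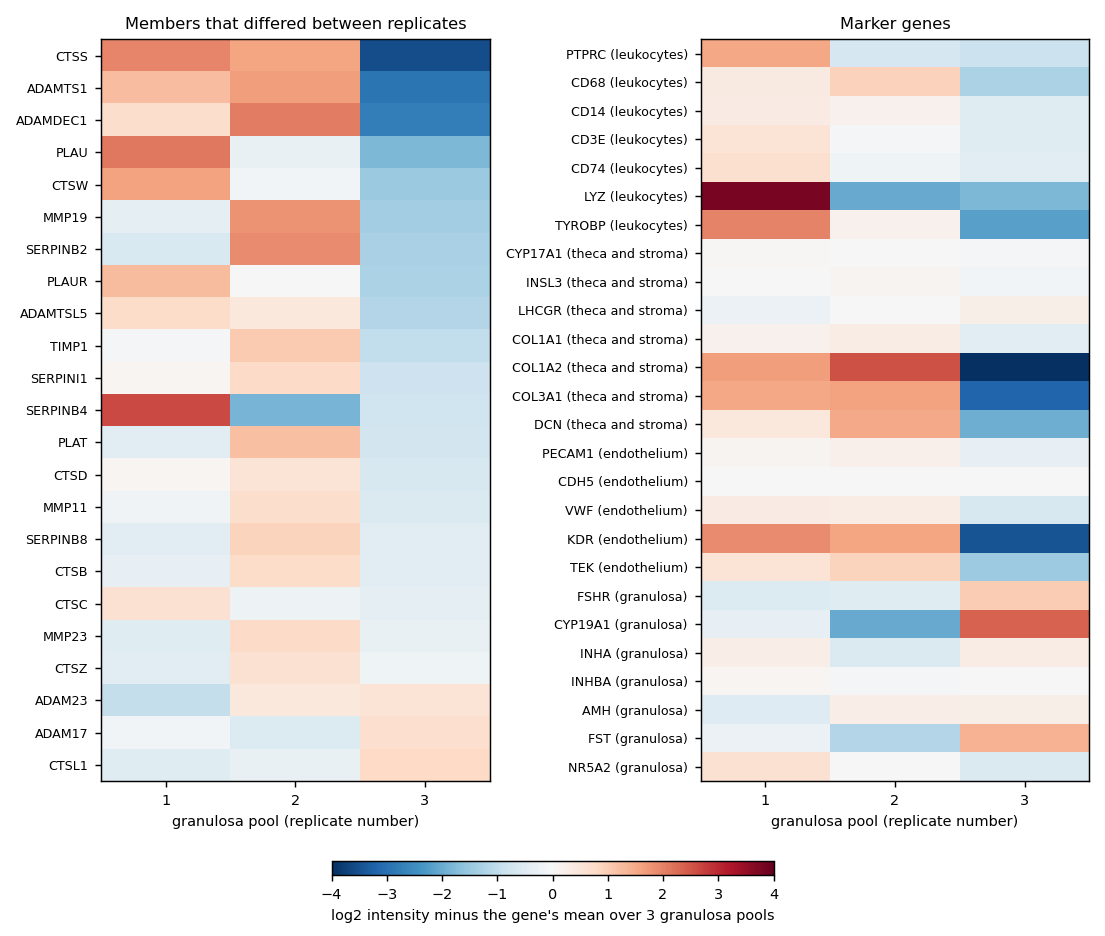
Log2 intensity in each granulosa pool minus the gene's mean over 3 pools, for 23 members that differed between replicates and for marker genes, with colour limited to 4 either way. Pool 3 was dimmest for 17 of the 23 members and for KDR, COL1A2 and COL3A1.

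Other genes of the same pathways were taken from lists. Beside 13.3% of all genes, 4 of 20 tested other proteases passed, 2 toward blastocysts and 2 toward granulosa cells. The blastocyst genes were ENPEP, or aminopeptidase A (5.23 ± 0.38, adjusted p = 0.00488), and MME, or neprilysin (3.19 ± 1.06, adjusted p = 0.0363). The granulosa genes were PRSS35, a trypsin-like protein of the ovary (-5.32 ± 0.91, adjusted p = 0.0123), and HTRA1, a secreted serine protease (-3.76 ± 1.11, adjusted p = 0.0291; SD, n = 3 for all). Of 18 tested other inhibitors, 1 passed: TFPI2, a Kunitz inhibitor of plasmin, was higher in granulosa cells at -3.81, -5.92 and -3.88 (adjusted p = 0.0242). Of 12 tested receptors and cofactors, 2 passed toward blastocysts and 1 toward granulosa cells. ANXA2 and S100A10, which together bind plasminogen at the cell surface, had 2.56 ± 0.95 (adjusted p = 0.0438) and 1.65 ± 0.63 (adjusted p = 0.0458). F2R, the thrombin receptor, had -2.49 ± 0.28 (SD, n = 3; adjusted p = 0.00801). S100A10 and F2R are named after their values were seen.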

How the data were processed

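The authors deposited, per the file headers, raw mean intensity and local background of each spot for Cy3 and Cy5. The value table the authors deposited holds a score that, per its values, they made as the quotient of log2 net intensities. In size, 100% of values lay within 1e-04 of it, Cy5 over Cy3 on 5 arrays and Cy3 over Cy5 on granulosa-titled array 2. Column medians were -0.998, -0.998, -1.00, 1.00, 0.999 and 1.00. The first 3, with blastocyst RNA in Cy3, thus carry a minus sign. The score was not used for tests. The sources used here name neither the scanner software nor the number of animals in a pool. p-values measure the spread between these 3 samples, which may be partly technical.

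With R 4.3.3 and limma 3.58.1, intensities were corrected by normexp (offset 50), normalized by loess, turned to blastocyst over granulosa, and averaged over same-numbered arrays. Channel levels are after loess and Aquantile. Probes had to exceed the 95th percentile of 153 negative controls on at least 3 of 6 arrays in 1 cell type, which left 35050. The brightest probe stood for a gene. lmFit and eBayes tested the mean against 0. In simulated data of 35050 probes, 78 of 100 changes of log2 2 and 92 of 100 of log2 4 were recovered. The titles number the arrays, and same-numbered deviations correlated at 0.85 to 0.93, against -0.59 to -0.20 for others, so the numbers were taken as pairs.

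Of the probes, 21790 had 1 symbol, 0 several and 22004 none; 20025 symbols were current, 1524 were updated through RefSeq (ARS-UCD2.0) and 241 were kept. Members and lists were chosen with earlier results of these data known. The genes named were a set of well-known members, up to 5 that passed in each role and direction, the 3 members with the widest spread over replicates, and up to 3 list genes per direction. Figures used matplotlib.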

Additional observations from a re-analysis of the deposited data

Results flagged for a closer look

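The ratio differed between dye orientations in 13 of the 25 named members (52%; limma dye term, adjusted p under 0.05), beside 49.4% of the 87 members and 48.5% of all genes. That these shares equal those of the replicate test is a coincidence of counts: 3121 genes and 24 members passed both. The dyes were exchanged in every replicate, so an additive dye difference cancels in the mean. Blastocyst in Cy5 minus blastocyst in Cy3, SERPINE2 differed by 4.10 (adjusted p = 0.000115), CTSV by 1.22, MMP2 by 0.87, CTSS by 0.71, MMP19 by 0.67, ADAMDEC1 by 0.60, ADAM17 by 0.58, CTSL1 by 0.52, SERPINA5 by 0.49, PLAUR by 0.39, CTSK by 0.31 and CTSD by -0.37. The difference of 0.25 in TIMP3 changed its sign, from -0.17 to 0.07. Orientations lay at least 1 apart in 5 members (5.75%), beside 1.53% of all genes.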

How the results depend on the processing

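Precision is limited by the 3 replicates and not by the number of arrays. Without 1 replicate in turn, the members that passed numbered 0 to 7 in place of 9, 0 to 2 in place of 2 higher in blastocysts, and 0 to 5 in place of 7 higher in granulosa cells. Enzymes numbered 0 to 2 toward blastocysts and 0 to 3 toward granulosa cells in place of 2 each, and inhibitors higher in granulosa cells 0 to 1 in place of 3. All genes that passed numbered 0 to 1305 in place of 1764 (1018 without replicate 1). The limma count was 0 without replicate 2, where 14 members and 3887 genes had an unadjusted p under 0.05. Members differing between replicates numbered 26 to 41 in place of 43. PLAU ranged from -0.43, a reversal without replicate 3, to 2.24 without replicate 1.

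With the replicate number as a block, 20 members passed (17 with a dye term), 5 of them higher in blastocysts under either fit and 15 (12) in granulosa cells. Of the enzymes, 4 were higher in blastocysts under either fit and 7 (6) in granulosa cells. Of the inhibitors, 1 was higher in blastocysts under either fit and 5 in granulosa cells without the dye term. The within-pair correlation was -0.0028 without a dye term and 0.66 with it. Beyond the members named above with their blocked values, it changed no call of a named member. Without background correction 1 enzyme was higher in granulosa cells, and ANXA2 lost its call (adjusted p = 0.0538). Without normalization the median of all genes was -0.21, and ADAM17 passed (-1.16). Where both cell types had to exceed background on all arrays, 7 members passed, 5 of them higher in granulosa cells. SERPINH1 and PRSS35 were then not tested, and the probes that passed for ADAM23 and MME were replaced by other probes of these genes, which did not pass (-0.23 and 0.85).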
